A study of Mus musculus with 6 samples.

Results

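The genes described here are 48 components of the complement and blood coagulation systems, chosen by gene symbol from the 54446 genes listed for mouse liver. They comprise 23 complement and 25 coagulation genes, and the serpin inhibitors of both cascades were left out. RNA was sequenced from liver of 3 wild-type (WT) and 3 Fmo5-/- mice, with 1 library for each mouse, to compare hepatic gene expression with and without flavin-containing monooxygenase 5 (FMO5). Both groups were males of the C57BL/6 background, given as C57BL/6J in the authors' methods. They were 32 weeks of age and kept on a standard chow diet, and no treatment is named in the labels. The groups therefore differed by genotype alone as labelled, and the Fmo5 deletion of the line is not limited to hepatocytes.

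Complement is a cascade of plasma proteins that tags and lyses microbes and cell debris. It is started by C1q bound to antibody (classical pathway), by mannose-binding lectins bound to sugars (lectin pathway) or by spontaneous turnover of C3 that factor B and properdin amplify (alternative pathway), and it ends with the membrane attack complex. Coagulation is a cascade of serine proteases that ends with thrombin cutting fibrinogen into fibrin, which plasmin later dissolves. Hepatocytes secrete most of these proteins, whereas C1q and properdin are made mainly by macrophages and other myeloid cells, and factor VIII, von Willebrand factor and thrombomodulin mainly by endothelium.

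The 6 libraries held between 44886286 and 52338675 reads counted on genes. Fmo5 itself gave normalized counts (read counts divided by the effective library size and brought back to the mean size) of 39808, 37405 and 30239.7 in WT and 1071, 1102 and 1194 in Fmo5-/- mice, a log2 fold change of -5.00 (SE 0.14) with an adjusted p of 2.79e-07 in edgeR's quasi-likelihood test. A gene was called where its Benjamini-Hochberg adjusted p was below 0.05 and its mean normalized count was at least 500. By that rule edgeR called 126 of 7819 genes, 43 higher and 83 lower in Fmo5-/- mice. The liver label was checked against hepatocyte markers, of which 9 of 9 matched genes were measured and the summed normalized counts were between 5841190 and 7485390 in every library. In whole tissue, fewer cells of a type and less RNA per cell cannot be told apart, and this holds for every level given below.

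All 48 genes were measurable, and 43 had a mean normalized count of at least 500, the exceptions being F3, F8, Vwf, Thbd and Tfpi. The clearest difference among them was a higher level of the 3 genes of C1q and of properdin (Cfp) in Fmo5-/- liver, between 1.91-fold and 2.25-fold on average, with every Fmo5-/- mouse above every WT mouse. The genes that hepatocytes express for C3, the lectin pathway, prothrombin, the contact system and fibrinogen had log2 fold changes between -0.14 (Klkb1) and 0.22 (F11), with overlapping genotypes. The range was wider, from -0.28 (F9) to 0.32 (C2), over all 39 genes with a mean of at least 500 other than C1q and Cfp. Of the 44 genes other than C1q and Cfp, 8 did not overlap (18.2%, against 27.4% of all genes tested). Fmo5-/- mice were above for C2, C4b, C8a, F7 and F10 and below for C1s1, C4bp and C8g. Log2 fold changes of these 8 lay between -0.24 (C4bp) and 0.32 (C2). EdgeR called 0 of the 48 genes, against a background of 1.61% of genes with a mean of at least 500 (0.55% higher and 1.06% lower), and 12 of the 48 had an unadjusted p below 0.05, against 21.8% of all genes tested. DESeq2 called 4 of the 43 genes with a mean of at least 500, C1qa, C1qb, C1qc and Cfp, all higher in Fmo5-/- mice, where its background was 9.54% called in either direction and 2.77% called higher. EdgeR without the filter on low counts called the same 4 genes, with 12.5% of genes called and 3.54% called higher. With reads of 1 strand, edgeR called Cfp alone, with 2.37% of genes called and 1.05% called higher. The call for these 4 genes thus depended on the test, and their values are given in each mouse below.

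The median log2 fold change was 0.05 over the 23 complement genes and -0.03 over the 25 coagulation genes, against 0.01 over the 16734 genes tested and -0.06 over those with a mean of at least 500. Normalized counts of the genotypes did not overlap for 12 of the 48 genes, 9 with Fmo5-/- mice above and 3 with Fmo5-/- mice below. Over all genes tested 27.4% did not overlap, 13.9% with Fmo5-/- above and 13.5% with Fmo5-/- below. The 12 were 10 of the 23 complement genes, 7 above and 3 below, and 2 of the 25 coagulation genes, both above. Of genes with a mean of at least 500, to which all 12 belong, 9.39% had Fmo5-/- mice above and 21.9% had them below. The difference between the cascades was not tested. The 95% confidence interval of the fold change lay within 1.5-fold in either direction for 40 of the 48 genes, compared with 8791 of all 16734. Of genes with a mean of at least 500, it did so for 38 of 43 among the 48 and for 6660 of 7819 in all, which are similar shares. Outside it lay C1qa, C1qb, C1qc and Cfp, together with F11, F8 and the low-count genes Vwf and Thbd.

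**Figure D1:**
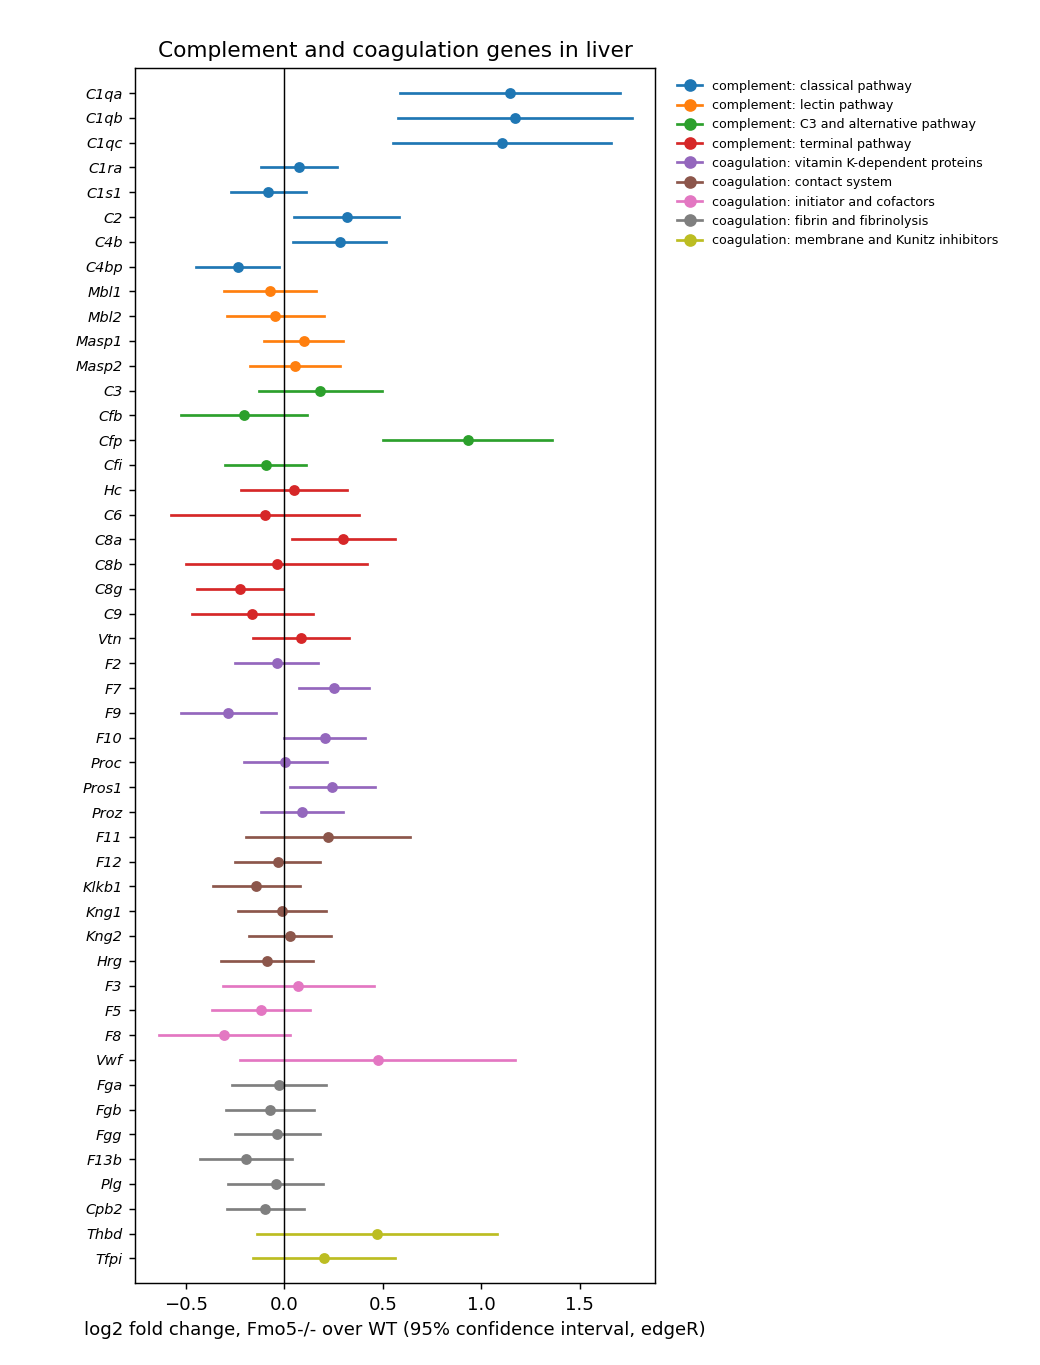
Log2 fold change of Fmo5-/- over WT liver for each of the 48 genes, ordered and coloured by role, with points for the edgeR estimate and lines for its 95% confidence interval (n = 3 mice per genotype). C1qa, C1qb, C1qc and Cfp lie between 0.93 and 1.17, apart from the other 44 genes, which lie between -0.31 and 0.47.

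C1q, the recognition molecule of the classical pathway, is assembled from A, B and C chains encoded by 3 adjacent genes on chromosome 4 (GRCm38), C1qb at chr4:136880129-136886187, C1qc at chr4:136889804-136893065 and C1qa at chr4:136895917-136898803, all on the minus strand. Normalized counts of C1qa were 1743, 1861 and 1577 in WT and 3935, 5003 and 2528 in Fmo5-/- mice. Those of C1qb were 1235, 1367 and 1160.5 in WT and 2964, 3688 and 1810.4 in Fmo5-/- mice. Those of C1qc were 1726, 1853 and 1664 in WT and 3944, 4874 and 2454 in Fmo5-/- mice. For each chain all 3 Fmo5-/- mice lay above the highest WT mouse, Fmo5-/- mouse 2 was the highest and mouse 3 the lowest of its genotype, and the WT mice lay close together. The log2 fold changes were 1.15 (SE 0.23) for C1qa, 1.17 (SE 0.25) for C1qb and 1.10 (SE 0.23) for C1qc. EdgeR gave adjusted p values of 0.0677, 0.071 and 0.0709 for the 3 genes in that order, and DESeq2 gave 3.31e-06, 4.72e-06 and 7.92e-06.

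The proportions of the 3 chains to each other were similar in the 6 mice. Per length of exon, C1qa made up 45.2, 44.7 and 44.0 percent of C1q transcripts in WT and 44.2, 44.9 and 45.3 in Fmo5-/- mice, which is a share near 45% in each mouse. The share of C1qb lay between 30.6% and 31.9% over all 6 mice. The share of C1qc was lower in each Fmo5-/- mouse by less than 1 percentage point on average, from 24.4% ± 0.566 to 23.7% ± 0.177 (SD, n = 3). The normalized counts summed over the chains were 4704, 5082 and 4401 in WT and 10843, 13565 and 6793 in Fmo5-/- mice, a ratio of 2.20 between the genotype means.

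Properdin, encoded by Cfp at chrX:20925454-20931555 on the minus strand of the X chromosome, stabilises the C3 convertase of the alternative pathway. Its normalized counts were 863, 937 and 949.8 in WT and 2015, 2010.1 and 1220.3 in Fmo5-/- mice. As for C1q, every Fmo5-/- mouse was above every WT mouse and Fmo5-/- mouse 3 was the lowest of its genotype. The log2 fold change was 0.93 (SE 0.18), with a 95% confidence interval of 0.50 to 1.36, and the adjusted p was 0.0557 in edgeR and 4.08e-05 in DESeq2. Without Fmo5-/- mouse 3, edgeR called all 4 genes, with 3.32% of genes called in that fit and 1.95% called higher, and the log2 fold changes were 1.37 for C1qa, 1.40 for C1qb, 1.33 for C1qc and 1.13 for Cfp. When any 1 of the other 5 mice was left out, edgeR called none of the 4 genes, with adjusted p values between 0.0975 and 0.195, and the log2 fold changes were lowest for the C1q genes without Fmo5-/- mouse 2, at 0.90 for C1qa, 0.93 for C1qb and 0.87 for C1qc, with 0.82 for Cfp. A log2 fold change of at least 0.9 was found for 4.14% of all genes tested and 0.844% of those with a mean of at least 500.

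**Figure D2:**
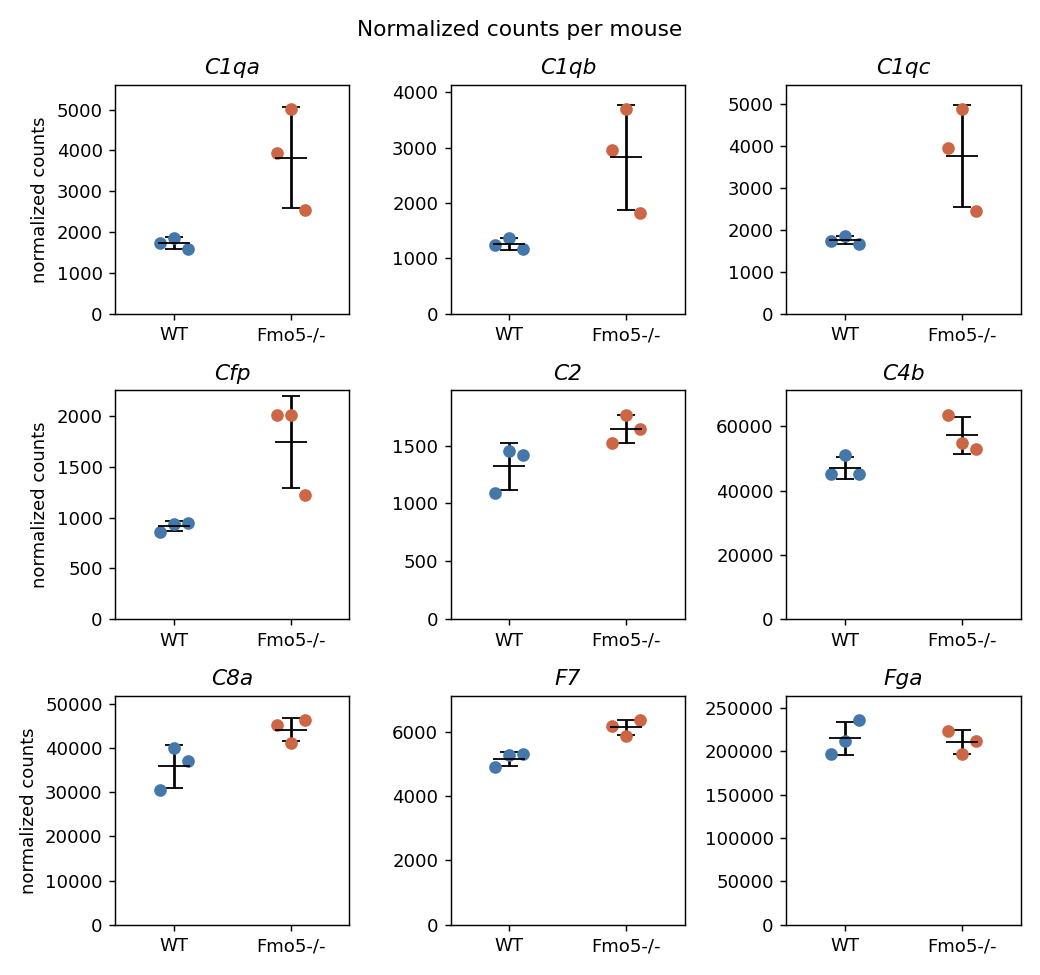
Normalized counts of 9 of the genes in each mouse, with WT mice in blue and Fmo5-/- mice in orange, and the mean and SD of each genotype as a bar (n = 3). C1qa, C1qb, C1qc and Cfp are higher in every Fmo5-/- mouse with a wide spread in that genotype, C2, C4b, C8a and F7 do not overlap by a smaller margin, and Fga overlaps.

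Markers of macrophages were higher in the same mice as these 4 genes. Of 10 Kupffer cell and macrophage markers 9 had a higher mean in Fmo5-/- mice, none was at 0 in any library, and the summed normalized counts were 16885, 18866 and 13795 in WT and 31059, 30081 and 20266 in Fmo5-/- mice. Clec4f, a lectin of Kupffer cells, was called by edgeR with a log2 fold change of 0.70 (SE 0.11) and an adjusted p of 0.0275, which ranged from 0.00845 to 0.102 in edgeR when 1 mouse was left out, with Clec4f called in 2 of 6 such fits. Its normalized counts were 3787, 3768 and 3139.9 in WT and 5907, 6327 and 5085 in Fmo5-/- mice. Cd5l, Csf1r, Marco and Cd163, which have a mean of at least 500, were called by DESeq2 with log2 fold changes of 1.25, 0.95, 2.24 and 0.75, and Slc40a1, the iron exporter, was the marker with a lower mean, at a log2 fold change of -0.20 (SE 0.16). Of the 7 markers with a mean of at least 500, edgeR called 1 and DESeq2 5, all higher. Of all genes with such a mean, edgeR called 0.55% higher and DESeq2 2.77%. The median level of the 10 markers relative to the WT mean was 0.953, 1.13 and 0.892 in WT and 2.52, 2.14 and 1.37 in Fmo5-/- mice, with Fmo5-/- mouse 3 again the lowest of its genotype.

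Counts of C1q and Cfp were then set against 7 single macrophage genes (Clec4f, Cd68, Csf1r, Cd5l, Vsig4, Adgre1 and Timd4). Vsig4 is not among the 10 markers above, and of these Marco, Cd163, Folr2 and Slc40a1 were not used. Marco and Slc40a1 had the highest and the lowest log2 fold change of the 10 markers, 2.24 and -0.20. The range of ratios below thus holds for the 7 genes used and leaves out these extremes. For the C1q sum the genotypes overlapped in all 7 ratios, and the ratio between the genotype means lay between 0.908 (Cd5l) and 1.33 (Clec4f). The ratio of the C1q sum to Cd68, a lysosomal glycoprotein of macrophages, was 21.5, 19.2 and 17.6 in WT and 18.5, 19.3 and 18.9 in Fmo5-/- mice, and the genotypes overlapped. The ratio to Cd5l, a secreted scavenger receptor-like protein, was 1.59, 1.74 and 1.99 in WT and 1.52, 1.72 and 1.59 in Fmo5-/- mice, which also overlapped. The ratio to Clec4f was 1.24, 1.35 and 1.40 in WT and 1.84, 2.14 and 1.34 in Fmo5-/- mice, higher than in every WT mouse for 2 of the 3 Fmo5-/- mice. For Cfp, 5 of the 7 ratios overlapped, among them that to Csf1r, the receptor for macrophage colony-stimulating factor, at 0.579, 0.508 and 0.661 in WT and 0.531, 0.604 and 0.583 in Fmo5-/- mice. The other 2 were lower in every Fmo5-/- mouse. The ratio of Cfp to Cd68 was 3.94, 3.54 and 3.79 in WT and 3.44, 2.86 and 3.39 in Fmo5-/- mice, and that to Cd5l was 0.293, 0.321 and 0.429 in WT and 0.283, 0.255 and 0.285 in Fmo5-/- mice. For Cfp the result thus depended on the macrophage gene used. Whether the level of C1q or Cfp per macrophage differed was not tested.

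Markers of other leukocytes were low in all libraries. Summed normalized counts of 6 neutrophil and monocyte markers were 349, 231 and 212 in WT and 534, 784 and 394 in Fmo5-/- mice, and Retnlg was the lowest of them at 18 or fewer in each mouse. Summed counts of 7 T, NK and B cell markers were 338, 214 and 269 in WT and 448, 716 and 338 in Fmo5-/- mice. Both sums had a higher mean in Fmo5-/- mice, and their part in the level of Cfp was not tested. Summed counts of 5 erythroid markers, which include haemoglobin genes, were higher than these and overlapped, at 14747, 14187 and 9872 in WT and 21144, 9931 and 10557 in Fmo5-/- mice. Markers of liver sinusoidal endothelium had overlapping sums of normalized counts, at 14506, 16186 and 13681 in WT and 14748, 15369.8 and 14356 in Fmo5-/- mice, and Fcgr2b, an Fc receptor, was the one called by DESeq2, with a log2 fold change of -0.44 (SE 0.11). DESeq2 called 6.77% of genes with a mean of at least 500 lower. Of the 10 endothelial markers 3 did not overlap between genotypes, 1 with Fmo5-/- mice above and 2 below. Of the 9 hepatocyte markers 3 did not overlap, all with Fmo5-/- mice below. Over all genes tested 27.4% did not overlap, and 21.9% of genes with a mean of at least 500 had Fmo5-/- mice below.

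**Figure D3:**
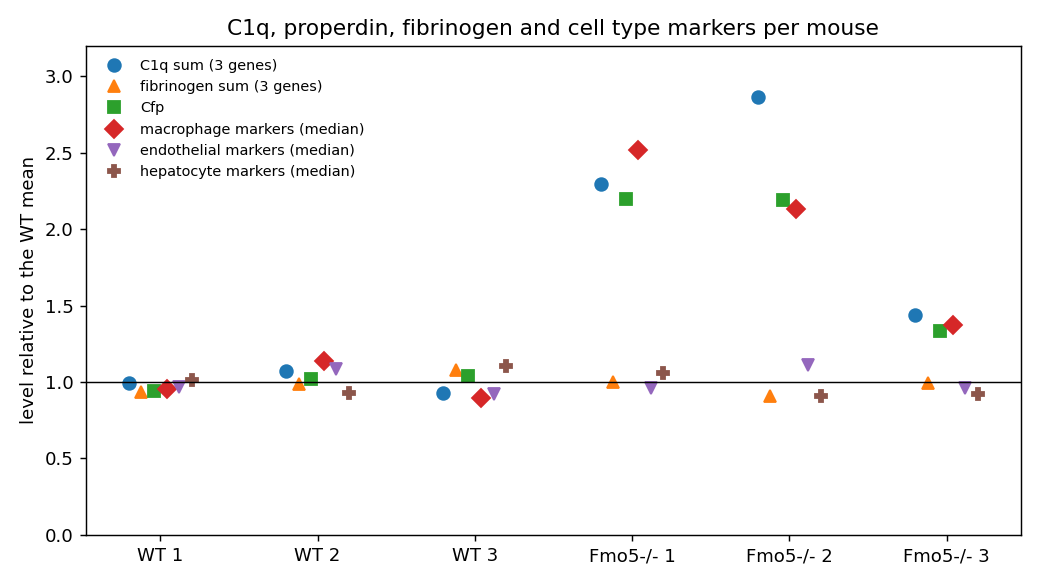
Level relative to the WT mean in each mouse for the C1q sum, Cfp, the fibrinogen sum and the median of macrophage, endothelial and hepatocyte markers; the line marks the WT mean. C1q, Cfp and the macrophage markers lie between 1.33 and 2.87 in the Fmo5-/- mice and are lowest in mouse 3. The fibrinogen sum and the medians of endothelial and hepatocyte markers lie between 0.909 and 1.11 in all 6 mice, and single markers vary more.

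The 250 bases before the start of C1qb and Cfp are shown because both genes were higher in Fmo5-/- mice, and those of fibrinogen genes follow further on because these overlapped. They are RefSeq sequences of GRCm38.p6, 5′ to 3′ in the orientation of the gene, and 37 of the 48 genes had such a sequence in the table used. Capitals mark matches, on either strand, to 3 motifs of regulators of myeloid and hepatic genes: GAGGAA, the core of the PU.1 box, TTGCNNAA, a form of the C/EBP site, and CTGGGAA, an interleukin-6 response element. The C1qb window is chr4:136886201-136886450 and the Cfp window chrX:20931556-20931805, both on the minus strand.
C1qb: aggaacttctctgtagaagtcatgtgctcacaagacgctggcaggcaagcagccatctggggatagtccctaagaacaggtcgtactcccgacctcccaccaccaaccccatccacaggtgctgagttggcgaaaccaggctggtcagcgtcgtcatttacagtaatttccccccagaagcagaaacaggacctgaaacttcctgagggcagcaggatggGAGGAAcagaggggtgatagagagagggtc
Cfp: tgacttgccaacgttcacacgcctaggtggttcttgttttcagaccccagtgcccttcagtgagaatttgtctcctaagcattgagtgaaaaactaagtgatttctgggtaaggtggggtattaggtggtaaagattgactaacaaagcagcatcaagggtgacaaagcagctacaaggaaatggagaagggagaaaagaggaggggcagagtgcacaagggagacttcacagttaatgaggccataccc
C1qb held 1 match to the PU.1 box, and Cfp held 0 matches to the 3 motifs. The PU.1 box occurred in 23.3% of the 32851 promoter windows of all genes and in 5 of the 37 members, C1qb, C1qc, F7, Fgb and Tfpi. A match is only a run of letters, and no binding was measured.

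Downstream of C1q, 4 of the 5 genes of the classical pathway (C1s1, C2, C4b and C4bp) did not overlap between genotypes, C2 and C4b with Fmo5-/- mice above and C1s1 and C4bp with them below, where 27.4% of all genes tested did not overlap. C1ra and C1s1 encode the proteases of the C1 complex, and their log2 fold changes were 0.08 (SE 0.09) and -0.08 (SE 0.08). C1s1 did not overlap, at 18042, 18487 and 18103 in WT and 17949, 16054 and 17647 in Fmo5-/- mice, although its difference was small. C4b, the substrate of C1s, had normalized counts of 45163, 51010.1 and 45129.6 in WT and 63585, 54968 and 53033 in Fmo5-/- mice, with a log2 fold change of 0.28 (SE 0.11). C2, the protease that joins C4b in the C3 convertase, had 1089.7, 1449.5 and 1420.2 in WT and 1519, 1765 and 1644 in Fmo5-/- mice, with a log2 fold change of 0.32 (SE 0.12). All Fmo5-/- mice were above all WT mice for both genes, and the adjusted p in edgeR was 0.168 for C4b and 0.165 for C2. C4bp, the inhibitor that removes C2 from C4b, had 33653, 34364 and 32080.1 in WT and 30956, 26519 and 27412 in Fmo5-/- mice, with each Fmo5-/- mouse lower, a log2 fold change of -0.24 (SE 0.09) and an adjusted p of 0.185 in edgeR. None of these 5 genes was called by either tool. C4a, nearly identical in sequence to C4b, had 2166, 6362 and 2981 in WT and 3668, 2946 and 3696 in Fmo5-/- mice, so reads that could be assigned to C4b only in part leave its level uncertain, and the same holds for C1ra and C1s1 beside their copies C1rb and C1s2, both at 23 or fewer normalized counts in each mouse.

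The lectin pathway showed overlapping genotypes for all 4 genes. The mannose-binding lectins Mbl1 and Mbl2 had log2 fold changes of -0.07 (SE 0.10) and -0.05 (SE 0.11), and their proteases Masp1 and Masp2 had 0.10 (SE 0.09) and 0.05 (SE 0.10). The widest 95% confidence interval among them, that of Mbl2, ran from -0.29 to 0.20. C3, on which the pathways converge, had normalized counts of 278870, 343442 and 252447 in WT and 375055, 307847 and 309683 in Fmo5-/- mice, with a log2 fold change of 0.18 (SE 0.14), and WT mouse 2 lay among the Fmo5-/- mice. Factor B (Cfb), the protease of the alternative pathway, had -0.21 (SE 0.14), and factor I (Cfi), which degrades C3b and C4b, had -0.10 (SE 0.09). Of the exon bases of Cfb and C2, 79.5% and 46.9% lie under exons of other genes, mainly the read-through gene Gm20547 on the same strand, where reads count for neither gene, so their values rest on the rest of the transcript. Properdin was the one alternative pathway member of the 4 whose genotypes did not overlap.

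Of the terminal pathway, which forms the membrane attack complex, the subunits C8a and C8g had differences of opposite sign, neither of them called. C8a and C8b lie side by side on chromosome 4 (chr4:104815679-104876398 and chr4:104766317-104804548), and C8g lies on chromosome 2. Normalized counts of C8a were 30529.6, 40122 and 37192 in WT and 45219.7, 41246 and 46327 in Fmo5-/- mice. Those of C8g were 22091, 19890.5 and 20579.7 in WT and 16232, 18025 and 19273 in Fmo5-/- mice. All Fmo5-/- mice were above all WT mice for C8a and below them for C8g. These were 2 of the 7 terminal pathway genes, where 27.4% of all genes tested did not overlap. The log2 fold changes were 0.30 (SE 0.12) for C8a and -0.22 (SE 0.10) for C8g, with adjusted p values of 0.179 and 0.215 in edgeR, so neither was called. C8b overlapped, at 11865, 20301 and 18344 in WT and 15348, 14755 and 19061 in Fmo5-/- mice, with WT mouse 1 far below the others.

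Per length, the C8a share of the C8 transcripts was 30.1, 34.1 and 32.8 percent in WT and 42.4, 38.8 and 38.4 in Fmo5-/- mice. The C8g share was 53.1, 41.2 and 44.2 percent in WT and 37.1, 41.3 and 39.0 in Fmo5-/- mice, and it overlapped by WT mouse 2. For C6, which extends the complex, WT mouse 1 was likewise low, at 9184, 15811 and 16246 in WT and 12558, 11889 and 14041 in Fmo5-/- mice, with a log2 fold change of -0.10 (SE 0.21). WT mouse 1 had the lowest level among WT mice for 25 of the 48 genes. C5 (Hc), C9 and vitronectin (Vtn), an inhibitor of the complex, had 0.05 (SE 0.12), -0.16 (SE 0.14) and 0.08 (SE 0.11), with overlapping genotypes.

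**Figure D4:**
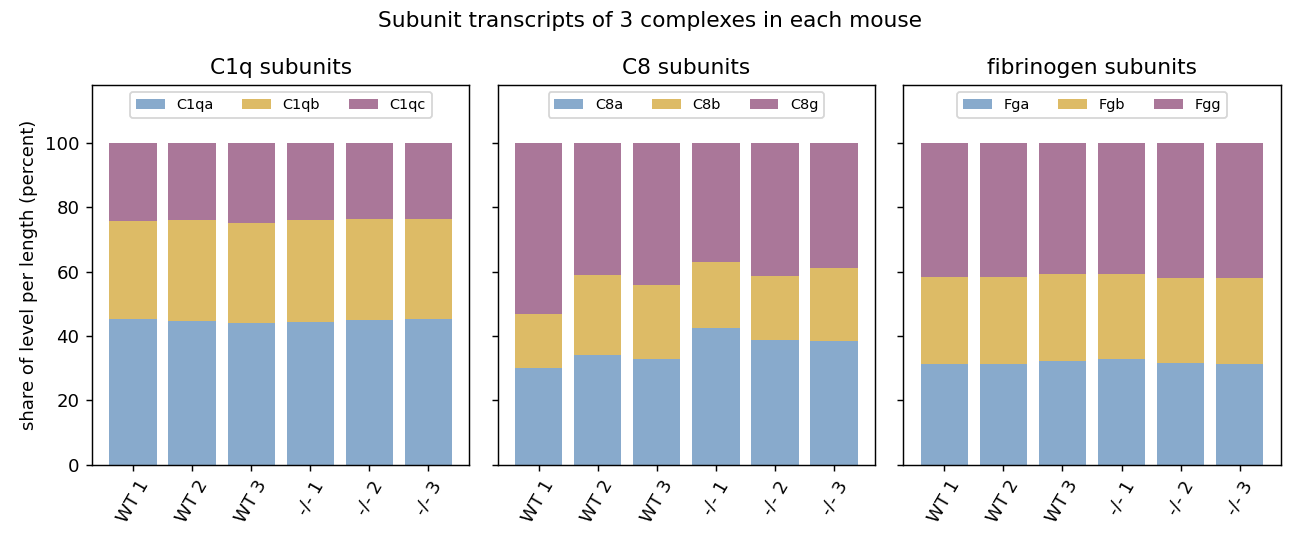
Share of each subunit in the transcripts of C1q, C8 and fibrinogen in each mouse, as a percentage of the summed level per kilobase of exon. The shares within C1q and fibrinogen are nearly equal in all 6 mice, and the C8a share is higher in each Fmo5-/- mouse, from 38.4% to 42.4% against 30.1% to 34.1% in WT mice.

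Among the 7 vitamin K-dependent proteins, the 2 without overlap between genotypes were factors VII and X, with higher values in each Fmo5-/- mouse. Of all genes tested, 27.4% did not overlap, 13.9% with Fmo5-/- mice above. Of those with a mean of at least 500, 9.39% had Fmo5-/- mice above. F7, the protease that binds tissue factor, had normalized counts of 4894, 5257 and 5288 in WT and 6179, 5878 and 6346 in Fmo5-/- mice, with a log2 fold change of 0.25 (SE 0.08). F10, which makes thrombin and lies next to F7 and Proz on chromosome 8, had 20871, 21879 and 24547 in WT and 26136, 25890.5 and 25547 in Fmo5-/- mice, with a log2 fold change of 0.21 (SE 0.09). The adjusted p in edgeR was 0.113 for F7 and 0.233 for F10, so the differences of 19.2% and 15.3% were not called. F9, the factor lacking in haemophilia B, had a log2 fold change of -0.28 (SE 0.11) and the cofactor protein S (Pros1) one of 0.24 (SE 0.10), both with overlapping genotypes. Prothrombin (F2), protein C (Proc), an inactivator of factors V and VIII, and protein Z (Proz) had log2 fold changes of -0.04, 0.00 and 0.09.

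In the contact system none of 6 genes separated the genotypes. Factors XI and XII had log2 fold changes of 0.22 (SE 0.18) and -0.03 (SE 0.10), plasma kallikrein (Klkb1) had -0.14 (SE 0.10), and the kininogens Kng1 and Kng2 had -0.01 (SE 0.10) and 0.03 (SE 0.09), although reads of these close copies may be split between them. Histidine-rich glycoprotein (Hrg) had -0.09 (SE 0.10). The interval was widest for F11, from -0.19 to 0.64. Its WT mouse 3, at 5623 normalized counts, stood above the other WT mice at 3494 and 3623.

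Fibrinogen, the precursor of the clot, showed no difference between genotypes that exceeded the spread between mice. Its 3 chains are encoded together on chromosome 3, by Fgg at chr3:83007724-83015049, Fga at chr3:83026076-83033627 and Fgb at chr3:83040141-83049863, about 14.6 Mb from Fmo5 on the same chromosome, which also carries F3 and Cfi at 24.1 and 32.2 Mb from it. Fga had normalized counts of 197189, 211422 and 235459 in WT and 223793, 196559 and 211809 in Fmo5-/- mice. Fgb had 218044, 228374 and 249511 in WT and 226263, 206177 and 228892 in Fmo5-/- mice. Fgg had 183556, 195746 and 207372 in WT and 193387, 180941 and 197766 in Fmo5-/- mice. The genotypes overlapped for each chain, with log2 fold changes of -0.03 (SE 0.11), -0.07 (SE 0.10) and -0.04 (SE 0.10), and 95% confidence intervals of -0.27 to 0.21, -0.30 to 0.15 and -0.25 to 0.18. Per length, Fga held between 31.1% and 32.9%, Fgb between 26.3% and 27.2% and Fgg between 40.8% and 42.0% of fibrinogen transcripts in the 6 mice. Fgb was lower relative to the others in each Fmo5-/- mouse, by less than 1 percentage point on average, from 27.0% ± 0.201 to 26.4% ± 0.251 (SD, n = 3).

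The windows before the start of Fgb (chr3:83049864-83050113, minus strand) and Fgg (chr3:83007474-83007723, plus strand) are given for comparison with those of C1qb and Cfp, with the same motifs in capitals.
Fgb: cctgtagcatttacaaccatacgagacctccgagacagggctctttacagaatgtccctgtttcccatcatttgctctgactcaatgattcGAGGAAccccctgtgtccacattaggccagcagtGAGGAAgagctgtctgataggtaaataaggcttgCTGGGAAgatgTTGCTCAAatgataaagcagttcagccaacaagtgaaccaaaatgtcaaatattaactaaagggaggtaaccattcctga
Fgg: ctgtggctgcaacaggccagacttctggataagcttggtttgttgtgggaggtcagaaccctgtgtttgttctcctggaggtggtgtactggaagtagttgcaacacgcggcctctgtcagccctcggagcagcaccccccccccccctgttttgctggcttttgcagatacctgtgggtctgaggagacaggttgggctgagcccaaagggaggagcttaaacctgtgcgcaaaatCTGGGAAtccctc
Fgb held 4 matches, to all 3 motifs, and Fgg held 1, to the interleukin-6 element close to the start. The C/EBP form was found in 10 of the 37 members against 9.56% of all windows, and the interleukin-6 element in 6 of 37 against 9.1%. These counts describe the letters in the windows alone, and the windows of C1qc and Fga, whose RefSeq starts lie 151 and 77 bases inside the gene as annotated by GENCODE, are not shown.

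Other genes of fibrin and its removal also overlapped. Factor XIII B (F13b), the carrier of the enzyme that cross-links fibrin, had a log2 fold change of -0.19 (SE 0.10), plasminogen (Plg), the precursor of plasmin, had -0.04 (SE 0.11), and carboxypeptidase B2 (Cpb2), which protects fibrin from plasmin, had -0.10 (SE 0.09). Factor V (F5), the cofactor of factor Xa, had -0.12 (SE 0.11). Tissue factor (F3), which starts coagulation, was low in liver, with normalized counts between 199 and 292 in all 6 mice, and had a log2 fold change of 0.07 (SE 0.17). Factor VIII (F8), the cofactor of factor IXa, had 469, 526 and 367 in WT and 332, 395 and 375 in Fmo5-/- mice, with a log2 fold change of -0.31 (SE 0.15).

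Vwf and Thbd, both endothelial genes, had the largest standard errors of the 48 genes. Von Willebrand factor (Vwf), the carrier of factor VIII, had normalized counts of 261, 285 and 190.2 in WT and 407, 420.4 and 192 in Fmo5-/- mice, with a log2 fold change of 0.47 (SE 0.30). Thrombomodulin (Thbd), the receptor through which thrombin activates protein C, had 150.4, 192 and 110.4 in WT and 221, 264 and 141 in Fmo5-/- mice, with a log2 fold change of 0.47 (SE 0.27). Fmo5-/- mouse 3 lay within the WT mice for both, so the genotypes overlapped. Tissue factor pathway inhibitor (Tfpi) had 0.20 (SE 0.16). The upper limits of the 95% confidence intervals of Vwf and Thbd reached 1.17 and 1.08. When 1 mouse was left out, the log2 fold change ranged from 0.29 to 0.75 for Vwf and from 0.27 to 0.68 for Thbd, lowest without Fmo5-/- mouse 2 and highest without Fmo5-/- mouse 3 for both. The adjusted p in edgeR ranged from 0.0524 to 0.729 and from 0.146 to 0.696 in these fits, and with means below 500 neither gene could be called.

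Levels of different genes were compared per length, as reads per kilobase of exon scaled to the effective library size (RPKM). In WT liver Fgg was highest, at 1915 ± 117 (SD, n = 3), followed by Fga at 1462 ± 132, Fgb at 1248 ± 86.3, C3 at 1162 ± 187 and vitronectin at 1141 ± 138. Fgg was above Fga in every WT mouse, and Fga above Fgb, but Fgb, C3 and Vtn overlapped. In all, 24 of the 48 genes were above 100 and 6 were below 10. The genes of macrophage and endothelial origin were at the lower end of this scale, with C1qa at 34.0 ± 2.82, Cfp at 10.8 ± 0.554, F8 at 0.939 ± 0.166, Thbd at 0.831 ± 0.224 and Vwf at 0.313 ± 0.0626. Of the 47 pairs of neighbours in the order of the means, 30 overlapped among WT mice, so that their order is not resolved. Levels per length of Cfb, Masp2, C2, Klkb1 and C1s1 count reads on only part of the gene, since 79.5%, 54.9%, 46.9%, 43.2% and 18.4% of their exon bases lie under exons of other genes, and Plg and Fgg share 11.3% and 5.49% with genes of the opposite strand. When the counts of both strand columns were added, which keeps reads on genes of opposite strands but may include reads of the other gene, counts were 64.6% higher for Masp2, 45.8% for C1s1, 27.6% for Plg and 14.0% for Fgg. In Fmo5-/- liver C1qa reached 75.3 ± 24.5 and Cfp 20.6 ± 5.40. Together the 48 genes held 3.76% ± 0.222 of the counts on genes in WT liver, below each of the Fmo5-/- values, whose mean was 4.12% ± 0.0775 (SD, n = 3 in both). Normalized counts summed over the 48 genes, which allow for the composition of each library, overlapped instead, at 1796570, 1984360 and 1941740 in WT and 2046770, 1822300 and 1941930 in Fmo5-/- mice.

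**Figure D5:**
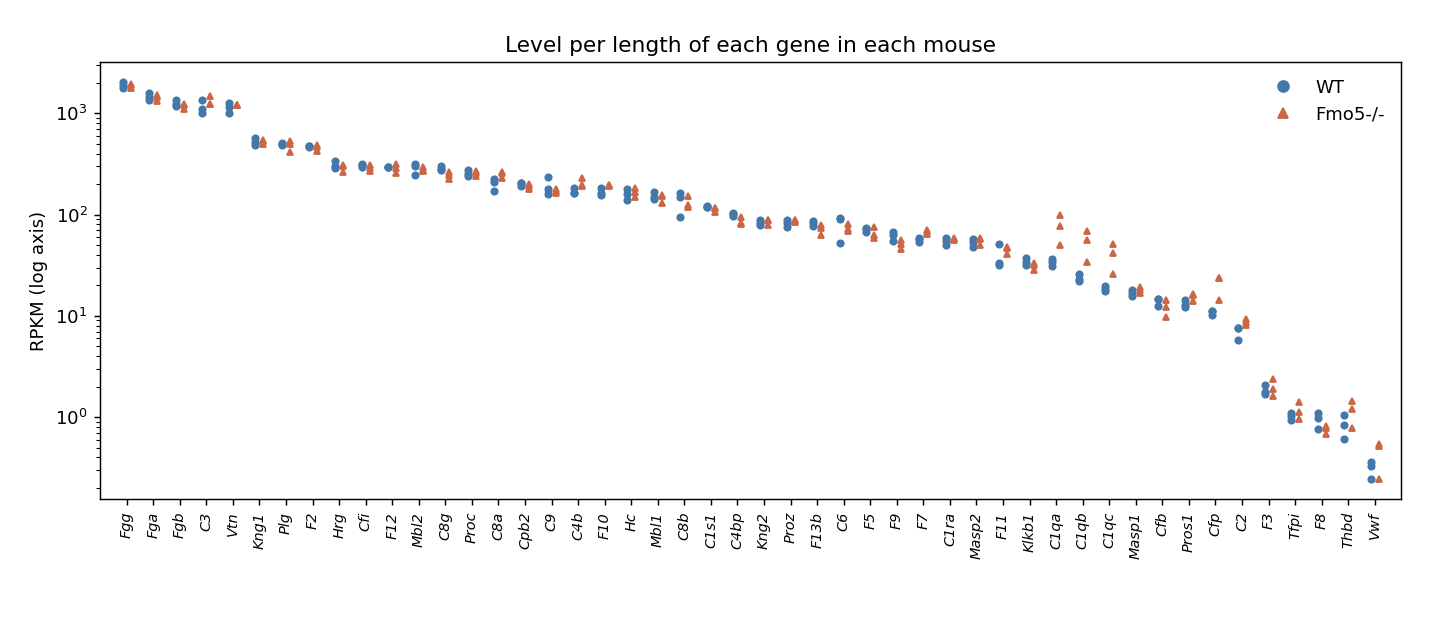
Level per length of each of the 48 genes in each mouse, in RPKM on a log axis, ordered by the WT mean (circles, WT; triangles, Fmo5-/-). Fibrinogen, C3 and vitronectin are above 1000 in WT mice on average, and the triangles stand furthest above the circles for C1qa, C1qb, C1qc and Cfp.

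Genes of both cascades outside the 48 were taken from a list of 56, of which 50 were tested and 30 had a mean of at least 500. EdgeR called 1 of these 30, where it called 1.61% of all genes with a mean of at least 500, and 1.06% lower. This gene was Tfpi2, an inhibitor of plasmin and of factor VIIa with tissue factor, with normalized counts of 4567, 4131 and 4489.5 in WT and 3333, 3409.9 and 3218 in Fmo5-/- mice. It was lower in every Fmo5-/- mouse, with a log2 fold change of -0.40 (SE 0.08) and an adjusted p of 0.0468. It was not called by edgeR when any 1 mouse was left out, with adjusted p values of 0.067 to 0.144. The median log2 fold change of the 50 genes was 0.05. DESeq2 called 7 of the 30, 4 of them higher and 3 lower, where it called 2.77% and 6.77% of all genes with a mean of at least 500.

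Among the complement genes called by DESeq2, Fcna, ficolin A of macrophages, had 1637, 1394 and 1147 in WT and 2158, 2419.5 and 1874 in Fmo5-/- mice and Vsig4, the C3b receptor of Kupffer cells, had 650.2, 719 and 562 in WT and 1449.5, 1282 and 814 in Fmo5-/- mice. Both were above every WT mouse, with log2 fold changes of 0.63 and 0.88 and adjusted p values of 0.00303 and 0.000715 in DESeq2. All 8 complement receptors on the list had a higher mean in Fmo5-/- mice, although 7 of them had a mean below 500. Cfd, the protease adipsin, which cleaves factor B to activate it, had 953, 553 and 452 in WT and 41.0, 129 and 40.3 in Fmo5-/- mice, a log2 fold change of -3.21 (SE 0.56), and an adjusted p of 0.0633 in edgeR and 3.44e-05 in DESeq2, but its mean was below 500.

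Among the coagulation genes called by DESeq2, Lman1 and Mcfd2, the cargo receptor pair that carries factors V and VIII out of the endoplasmic reticulum, had lower values in each Fmo5-/- mouse. Lman1 had 13526, 15468 and 12239 in WT and 10818, 9561 and 11718 in Fmo5-/- mice, and Mcfd2 had 12511, 12845 and 12258 in WT and 10776, 10413 and 9986 in Fmo5-/- mice. The log2 fold changes were -0.36 (SE 0.12) and -0.27 (SE 0.08), with adjusted p values of 0.12 and 0.102 in edgeR and 0.0446 and 0.0204 in DESeq2. Their cargo F5 overlapped between genotypes. Of the 6 genes of gamma-carboxylation and factor V and VIII export, 5 were lower in every Fmo5-/- mouse, where 21.9% of genes with a mean of at least 500 were lower in this way, Ggcx, the carboxylase itself, being the exception at 0.03 (SE 0.08). Fgl1, a hepatocyte protein related to fibrinogen, and Plgrkt, a plasminogen receptor, were called higher by DESeq2, with log2 fold changes of 0.54 (SE 0.18) and 0.60 (SE 0.17).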

How the data were processed

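Liver RNA of 3 WT and 3 Fmo5-/- mice was sequenced as single reads of 75 bases, 1 library per mouse. The authors mapped reads to mm10 with STAR and deposited raw read counts per gene, for both strands together and for each strand. The strand columns held nearly equal totals (49.9% to 50.1%), so the counts of both strands were used. A further deposited table, with counts the authors had normalized (signal) and their own fold changes and p-values, gave gene symbols and a check that its normalized counts were the raw counts divided by 1 factor per library; its comparison columns were not used. Its symbols named all 48 genes.

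Of 54446 gene identifiers 54409 were found in GENCODE vM21 (GRCm38), 1180 with another version number, which gave positions and exon lengths. Reads that mapped to several places (10.4% to 13.1% of those listed), to no gene or to overlapping genes were not counted, which lowers the levels of near-identical and overlapping genes. Between 66.2% and 69.2% of reads were counted on a gene.

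Counts were filtered with filterByExpr (minimum count 10, leaving 16734 genes), scaled by TMM and tested with edgeR 4.0.16 in R 4.3.3 (robust quasi-likelihood test on genotype, Benjamini-Hochberg adjustment over all genes tested). DESeq2 1.42.0, other scalings, other filters, 1 strand and leaving out each mouse were alternatives. Scripts were tested on simulated data. An exact permutation test of 3 against 3 mice cannot go below p = 0.1, so none was used. The labels name separate mice, but no litters or batches, and p-values measure the spread between these mice. Levels per length are reads per kilobase of exon union scaled to the effective library size (RPKM). Among the 48 genes, values in every mouse were given for genes called by edgeR or DESeq2, genes without overlap between genotypes, the subunits of C1q, C8 and fibrinogen, and genes of low count or with 1 mouse apart, the last chosen after their values were seen. Of the other lists, genes called by edgeR or DESeq2 were named, with a few others chosen after their values were seen. The members and lists were chosen with earlier results of these data known.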

Additional observations from a re-analysis of the deposited data

How the results depend on the processing

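Among the 48 genes, C1qa, C1qb, C1qc and Cfp were higher in Fmo5-/- mice under all 12 alternatives, and their call depended on the test. Complement genes called numbered 0 in the edgeR test used, 4 with DESeq2, 4 without the filter on low counts, 1 (Cfp) with reads of 1 strand, and 0 to 4 when a mouse was left out, the 4 without Fmo5-/- mouse 3. Coagulation genes called numbered 0 under each alternative. Genes called overall numbered 126, and 744 with DESeq2, 981 without the filter, 53 with the mean limit set before the fit, 197 with reads of 1 strand, and 14 to 259 when a mouse was left out, lowest without Fmo5-/- mouse 1 (14) and WT mouse 1 (33), then 52 without WT mouse 2 and 55 without Fmo5-/- mouse 2, and highest without Fmo5-/- mouse 3. Pathway genes called numbered 1, and 7 with DESeq2, 8 without the filter, 0 with the earlier limit, 2 with reads of 1 strand, and 0 to 2 without a mouse (0 without WT mouse 1 or 3 or Fmo5-/- mouse 1 or 2, and 2 without Fmo5-/- mouse 3). The median WT level per length was 94.3 with exon unions and 128 with the longest transcript. The causes of these changes were not tested. The earlier limit left 7819 genes in the fit in place of 16734 and also moved the median log2 fold change, as given below. The test with reads of 1 strand was chosen after seeing the data, because the library carried no strand, and for that reason the alternative with reads of the sense strand did not apply.

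The sign changed in at least 1 alternative for 17 genes, none above 0.163 in absolute log2 fold change as reported. With the limit set before the fit, which moved the median of genes with a mean of at least 500 from -0.06 to 0.0016, the log2 fold change became 0.018 for Mbl2, 0.024 for C8b, 0.024 for F2, 0.029 for F12, 0.050 for Kng1, 0.035 for Fga, 0.027 for Fgg and 0.019 for Plg. Proc became -0.011 with DESeq2, -0.0011 with RLE size factors and -0.0073 without the filter, and Plg became 0.030 with reads of 1 strand. When a mouse was left out, the log2 fold change ranged from -0.13 to 0.0032 for Mbl1, -0.15 to 0.029 for Mbl2, -0.0061 to 0.12 for Masp2, -0.028 to 0.15 for Hc, -0.31 to 0.044 for C6, -0.23 to 0.12 for C8b, -0.27 to 0.012 for C9, -6.5e-06 to 0.17 for Vtn, -0.089 to 0.019 for F2, -0.036 to 0.066 for Proc, -0.10 to 0.036 for F12, -0.066 to 0.058 for Kng1, -0.011 to 0.085 for Kng2, -0.092 to 0.19 for F3, -0.079 to 0.049 for Fga, -0.074 to 0.013 for Fgg and -0.12 to 0.048 for Plg. No paired analysis was possible because the labels give the mice no shared replicate numbers. The number of mice and counts below 500 limit the precision for F3, F8, Vwf, Thbd and Tfpi, and intervals cover the spread between these mice only.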

Other observations

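Acute phase proteins outside the 48 genes were described in the same libraries, since several hepatocyte genes of complement and coagulation belong to that response. Of 16 such genes 13 had a higher mean in Fmo5-/- mice, the median log2 fold change was 0.37, edgeR called none, 7 had an unadjusted p below 0.05, against 21.8% of all genes tested, and DESeq2 called 3, all higher, against 2.77% of genes with a mean of at least 500. The 3 were haemopexin (Hpx), a carrier of haem, lipopolysaccharide-binding protein (Lbp) and serum amyloid A3 (Saa3), with log2 fold changes of 0.51 (SE 0.12), 0.46 (SE 0.14) and 2.42 (SE 0.49). Normalized counts of Hpx were 141024, 165675 and 147567 in the WT mice and 207968, 242803 and 194461 in the Fmo5-/- mice, without overlap. C-reactive protein (Crp) and ceruloplasmin (Cp) had log2 fold changes of -0.13 (SE 0.11) and -0.08 (SE 0.10). The remaining gene with a lower mean, named after its values were seen, was hepcidin (Hamp), a regulator of iron export, which had 32972, 18845 and 30931 normalized counts in WT and 5.59, 2.75 and 3260.4 in Fmo5-/- mice. Its log2 fold change of -4.66 (SE 2.38) was the largest of the list in size and was not called, with an adjusted p of 0.352 in edgeR and 0.171 in DESeq2. Fmo5-/- mouse 3 stood far above the other mice of its genotype, so the size of this value depends on that mouse.

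Of 20 transcription factors and cytokine receptors known to act on plasma protein genes of liver, edgeR called none, 4 had an unadjusted p below 0.05, against 21.8% of all genes tested, and DESeq2, which called 6.77% of genes with a mean of at least 500 lower, called 1, the oestrogen receptor Esr1, lower in each Fmo5-/- mouse with a log2 fold change of -0.50 (SE 0.14). Of the 20 genes 4 did not overlap between genotypes, 1 with Fmo5-/- mice above and 3 with them below, where 27.4% of all genes tested did not overlap. The log2 fold changes of the 20 genes ranged from -0.80 to 0.58. Hnf4a, Cebpa and the interleukin-6 receptor Il6ra had log2 fold changes of -0.15 (SE 0.12), -0.08 (SE 0.14) and 0.24 (SE 0.12), with overlapping genotypes.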
